A study of Mus musculus with 12 samples.

Results

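Interferon regulatory factors (IRFs) were followed through 12 RNA sequencing libraries made from BMDMs, the macrophages that grow out of mouse bone marrow cultured with M-CSF. The genes were taken by symbol: 8 of the 55335 genes in the expression table were Irf1, Irf2, Irf3, Irf4, Irf5, Irf7, Irf8 and Irf9. Of these, 7 were among the 12622 genes that reached 1 FPKM in at least 3 libraries and could be tested, and Irf4 did not. FPKM values relate the fragments counted for a gene to its length in kilobases and to the total mapped in that library, so levels of different genes were compared per length.

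BMDMs of 2 genotypes, wild-type and Nlrp3-/-, were sequenced either untreated (control) or after LPS+ATP, with 3 libraries in each of the 4 groups. Lipopolysaccharide (LPS) is a bacterial ligand of Toll-like receptor 4 and ATP triggers the NLRP3 inflammasome, and the comparisons asked how BMDMs with and without NLRP3 answered both. BMDMs came from C57BL/6 mice aged 8 weeks, and control cells received neither agent. The labels gave 4 hours of LPS and then 30 minutes of ATP, whereas the methods gave 12 hours and 2 hours. The Nlrp3 deletion was carried by the whole animal, and the labels did not say whether replicates came from separate mice or cultures, so that p-values measured the spread between these libraries, which may be technical.

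IRFs are transcription factors that share a DNA-binding domain and recognize GAAA repeats in the promoters of interferon and interferon-stimulated genes. IRF3 and IRF7 are phosphorylated by TBK1 and IKKε downstream of pattern recognition receptors and switch on type I interferon genes. IRF9 is the DNA-binding subunit of the complex ISGF3, which carries the interferon signal to the nucleus. IRF1 activates and IRF2 mostly represses an overlapping set of genes, IRF5 acts downstream of MyD88 on inflammatory cytokine genes, and IRF4 and IRF8 work with PU.1 in myeloid and lymphoid cells.

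The promoters of 3 members are printed because they contrast the gene with the largest response, a gene with a large but variable response and a gene that passed no test. RefSeq promoter windows on GRCm38.p6 matched all 8 members in 11 windows, and the printed stretches stop where the gene begins in GENCODE M21. The submitters' processing notes name GRCm39, and the expression table itself held no coordinates. Irf7 lies on the minus strand (chr7:141266482-141266674), and Irf1 (chr11:53769764-53770013) and Irf2 (chr8:46739495-46739731) lie on the plus strand. Each sequence reads 5′ to 3′ along the gene, and capitals mark matches to the searched motifs.
Irf7: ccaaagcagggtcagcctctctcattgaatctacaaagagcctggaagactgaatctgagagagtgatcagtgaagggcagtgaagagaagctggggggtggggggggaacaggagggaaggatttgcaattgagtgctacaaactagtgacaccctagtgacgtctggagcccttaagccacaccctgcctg
Irf1: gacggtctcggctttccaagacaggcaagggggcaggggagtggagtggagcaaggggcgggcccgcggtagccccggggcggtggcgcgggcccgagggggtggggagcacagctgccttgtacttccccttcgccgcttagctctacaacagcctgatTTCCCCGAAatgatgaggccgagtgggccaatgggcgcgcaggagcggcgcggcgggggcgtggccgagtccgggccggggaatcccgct
Irf2: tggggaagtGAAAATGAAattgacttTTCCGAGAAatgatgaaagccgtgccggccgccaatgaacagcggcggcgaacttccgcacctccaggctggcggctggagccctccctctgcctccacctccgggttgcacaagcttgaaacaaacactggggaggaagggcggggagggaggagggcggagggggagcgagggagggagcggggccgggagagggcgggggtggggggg
Motifs were searched on both strands in the 250 bases before each start site. The interferon-stimulated response element core GAAANNGAA was found in 7.13% of 32851 RefSeq windows and in 1 of the 11 member windows, that of Irf2, 241 bases before its start site. The gamma-activated sequence core TTCNNNGAA, named for interferon-γ responses, was found in 7.02% of all windows and in 3 member windows. It stood 90 bases before the start of Irf1, 224 bases before that of Irf2, and at 171 and 153 bases in the upstream window of Irf8. The κB-like core GGNNTTTCC was found in 4.93% of all windows and in 2 member windows, 228 bases before the start of Irf3 and 16 bases before that of Irf2, where it runs into the gene. The windows of Irf7, Irf4, Irf5 and Irf9 held none of the 3 motifs. No match overlapped another, and a match describes letters only. Other forms of these sites were not searched, so a stretch without capitals, such as the end of the Irf1 sequence, may still hold them.

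The series as a whole set limits on the genotype comparisons. Nlrp3 was listed at 0 in all 6 Nlrp3-/- libraries and at 9.68 ± 0.425 FPKM (SD, n = 3) in wild-type control. Xist ran from 32.8 to 56.3 FPKM in Nlrp3-/- libraries and reached at most 0.0416 FPKM in wild-type libraries, while 4 Y-linked genes (Uty, Kdm5d, Eif2s3y and Ddx3y) stood at 0 in Nlrp3-/- libraries alone, so that genotype and sex cannot be told apart here. Nnt, which is deleted in some C57BL/6 substrains, averaged 9.38 and 4.23 FPKM in wild-type control and LPS+ATP and 1.16 and 0.893 FPKM in the Nlrp3-/- groups, so that a difference in substrain cannot be told apart from genotype either. All 7 macrophage markers were present in every group, and their summed level was 2252 to 2320 FPKM in wild-type control and 1520 to 1538 FPKM in Nlrp3-/- control. After LPS+ATP these sums were 2330 to 2362 and 1906 to 1925 FPKM. Cd68 alone averaged 1450 and 877 FPKM in the wild-type and Nlrp3-/- controls, whereas Mertk averaged 32.4 and 34.1 FPKM. With LPS+ATP in wild-type cells, Cd68, Csf1r and Mertk were lower and Cd14, Fcgr1 and Adgre1 were higher, so the macrophage sum hides changes in both directions. Summed fibroblast markers were 168 to 173 FPKM in wild-type control and 1250 to 1267 in Nlrp3-/- control, and 193 to 197 and 952 to 970 after LPS+ATP, with 0 of 7 markers at 0 in any group. Summed neutrophil markers were 331 to 367 and 1782 to 1830 FPKM in the controls, and 328 to 342 and 703 to 711 after LPS+ATP, with 0 of 8 at 0. Within these sums Lcn2 went from 9.96 to 218 FPKM with LPS+ATP in wild-type cells and from 43.2 to 208 FPKM in Nlrp3-/- cells. The other 6 of the 7 tested neutrophil markers were lower after LPS+ATP in each genotype, so the sums do not follow the markers alike. In bulk RNA, fewer cells of a type and less RNA per cell cannot be told apart. FPKM gives no read number, the depth of libraries relative to each other, taken from the steps of low values, was 1 to 1.22, and Pearson's r over tested genes was 0.990 to 0.993 within groups and 0.815 to 0.964 between groups.

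Before stimulation, Irf5 was the highest IRF transcript in both genotypes, at 33.7 ± 5.37 FPKM in wild-type control and 28.6 ± 4.99 FPKM in Nlrp3-/- control (SD, n = 3). Irf8 and Irf1 followed, with overlapping ranges in each genotype. In wild-type control, Irf7 and Irf9 came next with overlapping ranges, and then Irf2 and Irf3, which overlapped each other. In Nlrp3-/- control, Irf2, Irf9 and Irf3 overlapped along that order and Irf7 stood below them. After LPS+ATP, Irf7 was the highest member in both genotypes, followed by Irf1 and then Irf5, with no overlap between these 3. Irf9 and Irf8 then overlapped in wild-type cells, and Irf8 and Irf2 overlapped in Nlrp3-/- cells, while Irf3 and the low Irf4 closed the order in both.

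**Figure D1:**
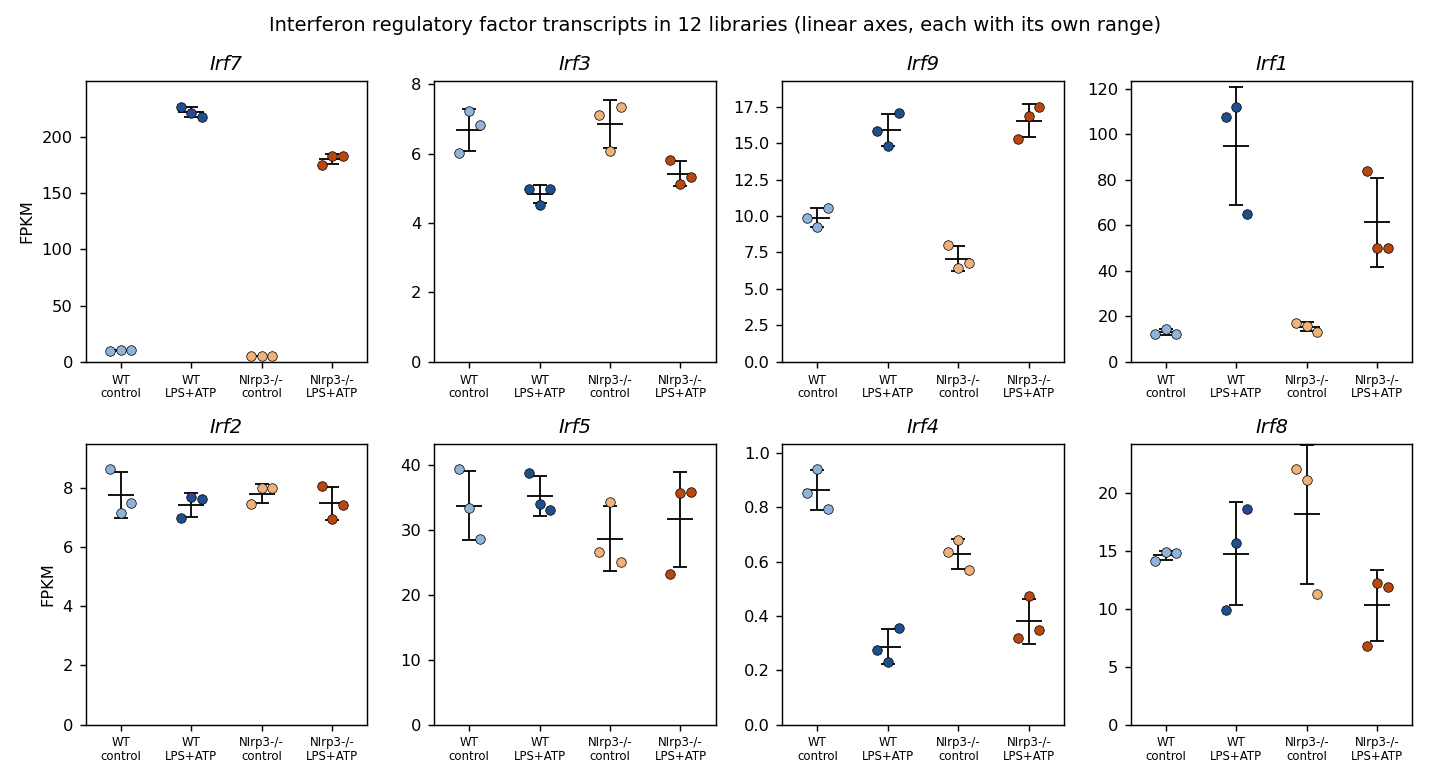
FPKM (y axis, linear, a separate range for each gene) of the 8 IRF genes in the 4 groups (x axis), with 1 point per library and the mean ± SD of 3 libraries as bars. Irf7 lay between 218 and 227 FPKM in wild-type LPS+ATP and between 175 and 184 FPKM in Nlrp3-/- LPS+ATP, far above both controls, whereas Irf2 and Irf5 overlapped across all groups.

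The summed FPKM of the 8 members was 96.9 ± 4.94 in wild-type control and 395 ± 26.5 in wild-type LPS+ATP, and 89.7 ± 11 and 314 ± 4.48 in the Nlrp3-/- groups (SD, n = 3). Irf7 made up 10.7 ± 0.7499% of that sum in wild-type control and 56.3 ± 3.08% with LPS+ATP. Its share in Nlrp3-/- BMDMs was 5.72 ± 0.645% and 57.6 ± 2.25%. Irf5 gave 34.7 ± 3.86% and 31.9 ± 3.43% of the sum in the wild-type and Nlrp3-/- controls and 8.91 ± 0.582% and 10.1 ± 2.44% after stimulation. The composition thus shifted from an Irf5-led set to an Irf7-led set in every library of both genotypes, and the shares are a description with no test.

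**Figure D2:**
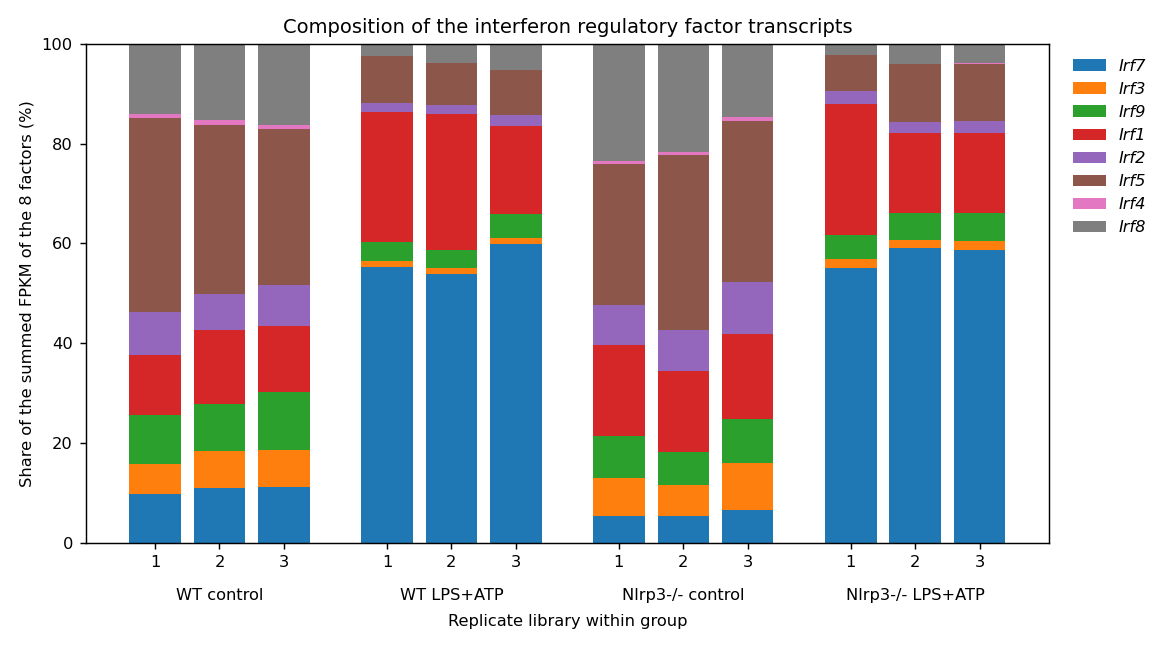
Share of the summed FPKM of the 8 IRF genes (y axis, percent) in each of the 12 libraries (x axis, replicate number within group), with 1 color per gene. Irf7 took 53.9 to 59.8% in wild-type LPS+ATP and 55.0 to 59.0% in Nlrp3-/- LPS+ATP, against at most 11.2% in any control library.

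Differences were tested with limma on log2(FPKM + 1), and "rose" and "fell" stand for a Benjamini-Hochberg adjusted p under 0.05 over all 12622 tested genes. A DEG in addition changed by 1 or more in log2 units, up or down, on a scale that understates the change of low genes. In wild-type BMDMs, LPS+ATP raised 3 of the 7 tested members (Irf7, Irf1 and Irf9) and lowered 1 (Irf3). Of all tested genes, 23.3% rose and 53.1% fell in that comparison. Irf7 and Irf1 were DEGs that rose, 2 of 7 members against 8.25% of all tested genes, and 0 members were DEGs that fell, against 11.2%. In Nlrp3-/- BMDMs, 3 members rose (Irf7, Irf1 and Irf9) and 2 fell (Irf3 and Irf8), where 20.6% of all tested genes rose and 53.8% fell. All 3 that rose were DEGs, against 6.64% of tested genes, and 0 members were DEGs that fell, against 8.21%. The median log2 fold change of the members was 0.07 in wild-type and 0.12 in Nlrp3-/- cells, beside -0.25 and -0.24 over all tested genes.

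Irf7, the factor that amplifies type I interferon production, responded most of all members. It read 9.93, 10.8 and 10.2 FPKM in wild-type control and 227, 221 and 218 FPKM in wild-type LPS+ATP. In Nlrp3-/- BMDMs it read 5.03, 5.24 and 4.99 FPKM in control and 175, 184 and 183 FPKM with LPS+ATP. None of the 4 groups overlapped, and the libraries of each group lay close together. The mean level was 21.5 times the control in wild-type and 35.5 times the control in Nlrp3-/- BMDMs. On the log2 scale the rises were 4.30 ± 0.04 (SE) with an adjusted p of 2.89e-15 and 4.90 ± 0.04 with an adjusted p of 1.75e-15 by limma. In FPKM the rise was larger in wild-type cells, at 212 ± 2.65 (SE) against 176 ± 2.61 in Nlrp3-/- cells.

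Irf3, the constitutive partner of Irf7 in interferon induction, moved the other way and by far less. It read 6.02, 7.23 and 6.82 FPKM in wild-type control and 4.97, 4.53 and 4.99 FPKM with LPS+ATP, and 7.13, 6.07 and 7.36 FPKM and then 5.83, 5.11 and 5.33 FPKM in Nlrp3-/- BMDMs. Stimulated and control libraries did not overlap in either genotype. The log2 fold change was -0.40 ± 0.08 (adjusted p = 7.61e-04) in wild-type and -0.29 ± 0.08 (adjusted p = 0.00661) in Nlrp3-/- cells by limma. Both calls depended on how libraries were scaled: median-ratio scaling shifted the log2 fold change of tested genes by a median of 0.27 and 0.25 in these comparisons, and Irf3 then stood at -0.12 (adjusted p = 0.193) and -0.04 (adjusted p = 0.706). Within a library, where no scaling enters, log2 Irf7/Irf3 was 0.63 in wild-type control and 5.53 with LPS+ATP, and -0.43 and 5.06 in the Nlrp3-/- groups. Because Irf7 rose, this ratio cannot show whether Irf3 fell.

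Irf9, the DNA-binding subunit of ISGF3, rose in both genotypes. It read 9.87, 9.23 and 10.6 FPKM in wild-type control and 15.8, 14.8 and 17.0 FPKM with LPS+ATP. In Nlrp3-/- BMDMs it read 8.03, 6.41 and 6.78 FPKM and then 15.3, 16.8 and 17.5 FPKM. The stimulated groups overlapped each other, and both stood above both control groups. The log2 fold change was 0.63 ± 0.08 (adjusted p = 2.79e-05) in wild-type and 1.12 ± 0.08 (adjusted p = 2.51e-07) in Nlrp3-/- BMDMs by limma. In GENCODE M21, Irf9 overlaps Rnf31 on the same strand, and Rnf31 went from 5.78 to 14.9 FPKM in wild-type BMDMs, and in Nlrp3-/- BMDMs from 5.09 to 12.4 FPKM, so that the division of shared reads between them is uncertain.

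Irf1, an interferon- and NF-κB-responsive activator, rose by 2.74 ± 0.23 on the log2 scale in wild-type (adjusted p = 6.53e-07) and by 1.89 ± 0.23 in Nlrp3-/- BMDMs (adjusted p = 1.84e-05, limma). It read 12.3, 14.6 and 12.1 FPKM in wild-type control and 107, 112 and 64.9 FPKM with LPS+ATP, and 17.1, 15.9 and 13.2 FPKM and then 83.9, 49.97 and 50.01 FPKM in Nlrp3-/- BMDMs. Every stimulated library stood above every control library, but replicate 3 of the wild-type and replicate 1 of the Nlrp3-/- LPS+ATP libraries stood apart from their groups and toward the other genotype. Gm17334, which overlaps Irf1 on the opposite strand, went from 0.301 to 5.16 FPKM in wild-type cells, and in Nlrp3-/- cells from 0.286 to 3.26 FPKM, and since the counting was not stated to use strand, reads from both cannot be told apart. The same limit holds for Irf2, Irf3, Irf5 and Irf7, which also overlap genes on the opposite strand, among them Bcl2l12 for Irf3, Tnpo3 for Irf5 and Phrf1 for Irf7.

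Irf2, which mostly represses IRF1 target genes, read 8.64, 7.16 and 7.49 FPKM in wild-type control and 6.98, 7.70 and 7.63 FPKM with LPS+ATP. In Nlrp3-/- BMDMs it read 7.45, 8.005 and 7.999 FPKM and then 8.07, 6.97 and 7.43 FPKM. All 4 groups overlapped. Its log2 fold change was -0.05 in wild-type (95% interval -0.21 to 0.10, adjusted p = 0.511) and -0.06 in Nlrp3-/- BMDMs (-0.21 to 0.10, adjusted p = 0.486, limma), and median-ratio scaling turned it to 0.24 (adjusted p = 0.0101) and 0.20 (adjusted p = 0.0267). The log2 ratio Irf1/Irf2, independent of scaling, was 0.74 and 3.63 in the wild-type groups and 0.97 and 2.99 in the Nlrp3-/- groups.

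Irf5, the factor linked to MyD88-driven cytokine genes, read 39.3, 33.3 and 28.6 FPKM in wild-type control, 38.7, 33.95 and 33.0 FPKM with LPS+ATP, and 26.6, 34.3 and 25.0 FPKM and then 23.2, 35.7 and 35.8 FPKM in Nlrp3-/- BMDMs. The groups overlapped throughout. Its log2 fold change was 0.07 in wild-type (95% interval -0.32 to 0.46, adjusted p = 0.731) and 0.12 in Nlrp3-/- BMDMs (-0.26 to 0.51, adjusted p = 0.538, limma).

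Irf8, a lineage factor of monocytes and macrophages, was the member with the widest replicate spread. It read 14.2, 14.9 and 14.8 FPKM in wild-type control and 9.91, 15.7 and 18.7 FPKM with LPS+ATP, and 22.1, 21.2 and 11.3 FPKM and then 6.78, 12.2 and 11.9 FPKM in Nlrp3-/- BMDMs. The groups overlapped in both genotypes. Its log2 fold change was -0.03 in wild-type (adjusted p = 0.933) and -0.75 ± 0.28 in Nlrp3-/- BMDMs (adjusted p = 0.0332, limma). That call was lost without replicate 1 or 2 of Nlrp3-/- control, at -0.59 and -0.61, and without replicate 1 of Nlrp3-/- LPS+ATP, at -0.50, with adjusted p from 0.109 to 0.137. It was also lost at -0.47 under median-ratio scaling (adjusted p = 0.164) and at -0.63 under upper-quartile scaling (adjusted p = 0.0699), and at the same fold change with no filter (adjusted p = 0.0771) and with only the groups compared (adjusted p = 0.0638). In GENCODE M21, Irf8 overlaps Gm20388 on the same strand, so that the assignment of shared reads is uncertain for Irf8 too.

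Irf4, the closest relative of Irf8, was expressed at a low level. It read 0.853, 0.940 and 0.796 FPKM in wild-type control and 0.274, 0.231 and 0.357 FPKM with LPS+ATP, and 0.637, 0.679 and 0.570 FPKM and then 0.319, 0.474 and 0.348 FPKM in Nlrp3-/- BMDMs. Stimulated libraries stood below control libraries in both genotypes. In the fit of all genes without the low-value filter, its log2 fold change was -0.53 ± 0.06 (adjusted p = 5.05e-05) in wild-type and -0.24 ± 0.06 (adjusted p = 0.0111) in Nlrp3-/- BMDMs by limma. The 7 dendritic cell markers, a cell type in which both factors are prominent, summed to at most 1.15 FPKM in any library, the 7 B and plasma cell markers to between 1.204 and 8.10 FPKM, and the 3 T cell markers to at most 0.0905 FPKM. The log2 ratio Irf4/Irf8 was -4.09 and -5.66 in the wild-type groups and -4.80 and -4.73 in the Nlrp3-/- groups.

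**Figure D3:**
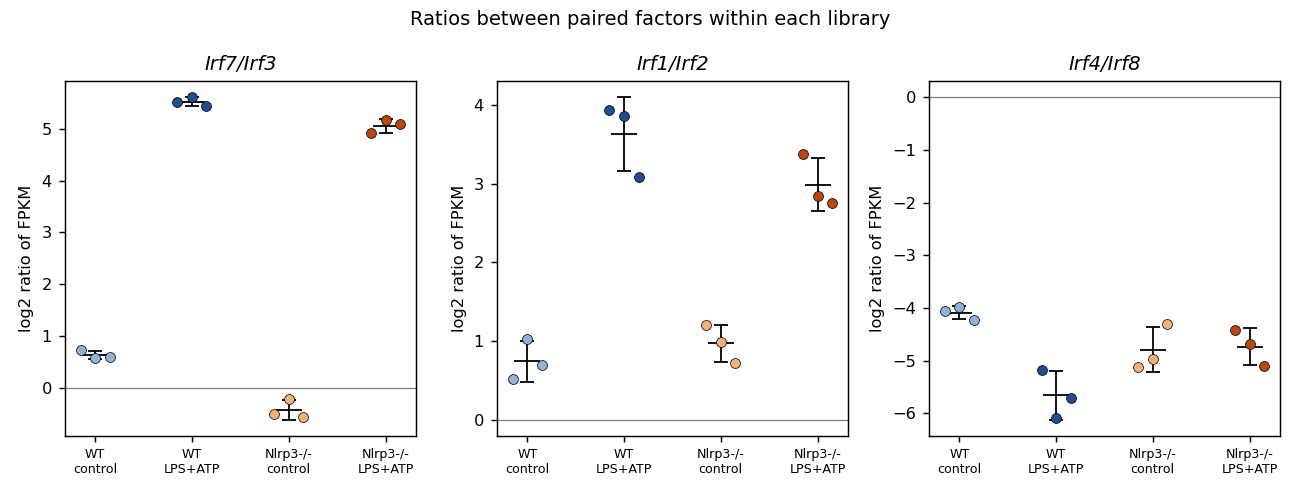
Log2 ratio of FPKM (y axis) between Irf7 and Irf3, Irf1 and Irf2, and Irf4 and Irf8 within each library, by group (x axis), with points for libraries and the mean ± SD of 3 as bars. Irf7/Irf3 rose from 0.63 to 5.53 in wild-type and from -0.43 to 5.06 in Nlrp3-/- BMDMs.

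The 3 ratios were compared in 12 two-sided exact permutation tests, in which 3 against 3 libraries cannot give a p below 0.1. Irf7/Irf3 differed by 4.90 and 5.49 on the log2 scale with stimulation, and by -1.06 and -0.47 between genotypes without and with LPS+ATP, each with p = 0.1 (exact permutation test, adjusted p = 0.133) and no overlap between groups. Irf1/Irf2 differed by 2.89 and 2.02 with stimulation at the same p, and between the genotypes the groups overlapped. The log2 ratio Irf4/Irf8 differed with LPS+ATP by -1.57 in wild-type (p = 0.1, exact permutation test) and by 0.06 in Nlrp3-/- BMDMs (p = 0.9, exact permutation test). Between the genotypes it differed by -0.71 in control and by 0.93 with LPS+ATP, each with p = 0.1 (exact permutation test, adjusted p = 0.133) and no overlap.

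Between the genotypes without stimulation, 0 members were higher and 2 were lower in Nlrp3-/- BMDMs, namely Irf7 and Irf9, while 33.3% of all tested genes were higher and 14.5% were lower. Irf7 differed by -0.90 ± 0.04 on the log2 scale (adjusted p = 4.42e-09), at 0.492 times the wild-type mean, and Irf9 by -0.44 ± 0.08 (adjusted p = 0.00112), at 0.715 times that mean, by limma. In both genes all 3 Nlrp3-/- control libraries lay below all 3 wild-type control libraries. Irf4 was also lower without the low-value filter, by -0.19 ± 0.06 (adjusted p = 0.0493, limma). The 5 other tested members had log2 differences from -0.23 to 0.24, with adjusted p of at least 0.311. No member was a DEG, against 6.02% of tested genes higher and 0.689% lower. The median over the members was 0.01, beside 0.09 over all tested genes. The summed macrophage markers were also lower and the summed fibroblast and neutrophil markers higher in Nlrp3-/- control, as given above, and their part in these differences was not tested.

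With LPS+ATP, 0 members were higher and 2 were lower in Nlrp3-/- BMDMs, again Irf7 and with it Irf1, while 35.9% of tested genes were higher and 12.6% were lower. Irf7 differed by -0.30 ± 0.04 (adjusted p = 4.30e-05, limma) and Irf1 by -0.62 ± 0.23 (adjusted p = 0.0435, limma). The call on Irf1 was at the threshold: its groups overlapped, and of the 12 libraries, leaving out any but replicate 3 of wild-type LPS+ATP, replicate 1 of Nlrp3-/- LPS+ATP or replicate 3 of Nlrp3-/- control ended it, with adjusted p from 0.0520 to 0.149. Irf9 stood at 0.05 (adjusted p = 0.627) and Irf3 at 0.14 (adjusted p = 0.174) by limma. No member was a DEG, against 4.48% of tested genes higher and 0.570% lower. The median of the members was -0.18, beside 0.11 over all tested genes.

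**Figure D4:**
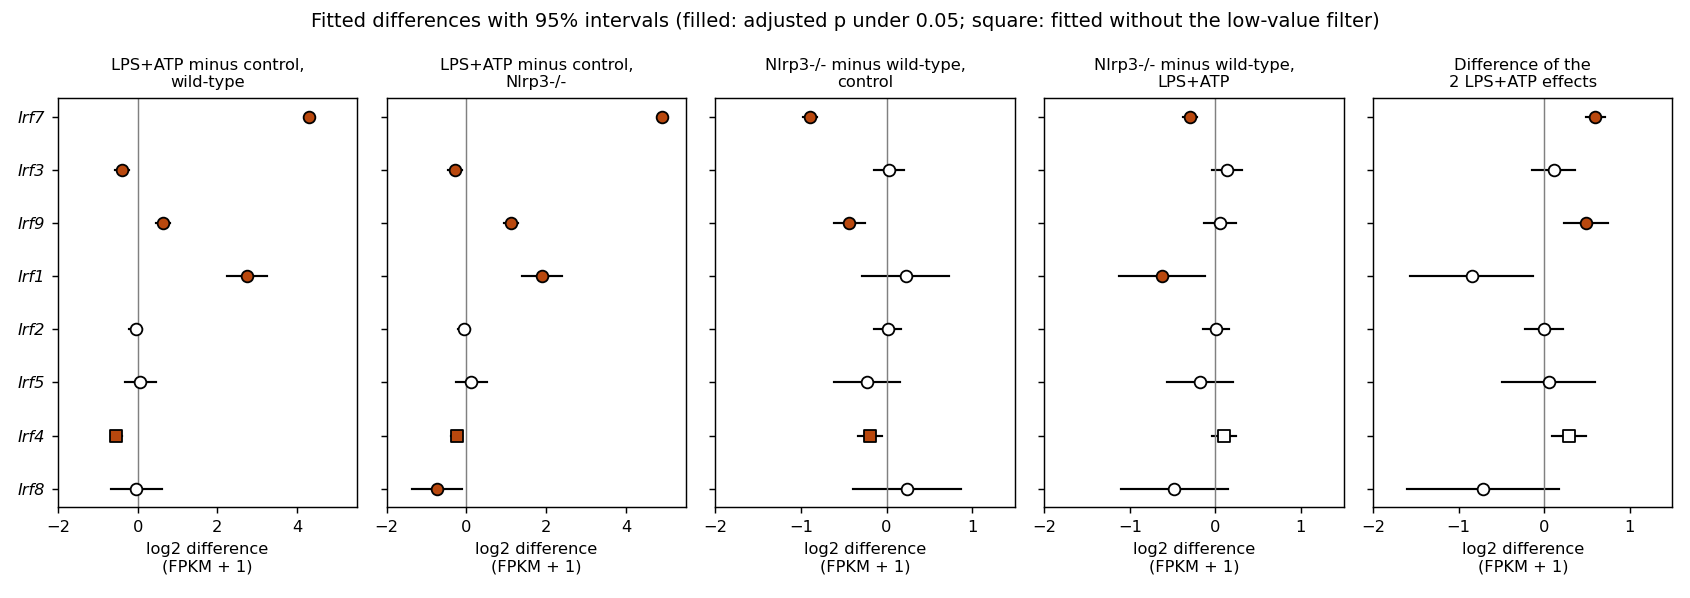
Log2 differences of FPKM + 1 (x axis) for each IRF gene (y axis) in the 5 comparisons, with 95% intervals as lines. Filled symbols passed an adjusted p under 0.05, and squares mark Irf4, fitted without the low-value filter; Irf7 and Irf9 are filled in the last panel, at 0.60 and 0.49.

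The difference between the 2 stimulation effects was tested as the interaction of genotype and stimulation. It was positive for 2 members, Irf7 at 0.60 ± 0.05 (adjusted p = 1.03e-05) and Irf9 at 0.49 ± 0.12 (adjusted p = 0.00955, limma), meaning a larger log2 rise in Nlrp3-/- BMDMs, and negative for 0, where 14.7% and 13% of tested genes passed in each direction. For both genes the log2 difference between genotypes seen in control libraries was smaller after LPS+ATP. In FPKM the gap widened for Irf7, whose means were 10.3 and 5.08 in wild-type and Nlrp3-/- control and 222 and 181 after LPS+ATP. Irf1 stood at -0.85 ± 0.33 (adjusted p = 0.0781, limma), and the value became -1.10 without replicate 3 of wild-type LPS+ATP (adjusted p = 0.0154) and -1.09 without replicate 1 of Nlrp3-/- LPS+ATP (adjusted p = 0.0163). Irf8 stood at -0.72 (95% interval -1.61 to 0.17, adjusted p = 0.221, limma), and Irf2, Irf3 and Irf5 lay between -0.003 and 0.11. No member was a DEG in this sense, against 0.721% of tested genes above and 1.43% below. The median of the members was 0.05, beside 0.02 over all tested genes.

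Genes upstream of the IRFs moved in both directions. Of 18 adaptors and kinases, 10 rose and 6 fell in wild-type BMDMs, and 9 rose and 4 fell in Nlrp3-/- BMDMs, where 23.3% and 53.1% of all tested genes rose and fell in wild-type and 20.6% and 53.8% in Nlrp3-/- BMDMs. Tank, a scaffold of TBK1, rose by 1.70 and 1.40 on the log2 scale, and Azi2, another TBK1 adaptor, by 1.62 and 1.49, in wild-type and Nlrp3-/- cells respectively. Ikbke, which encodes IKKε, was a DEG in Nlrp3-/- BMDMs at 1.15. Between the genotypes 1 was higher and 7 were lower in control, 4 were higher and 5 lower with LPS+ATP, and 0 were DEGs in either state. Over all tested genes 33.3% were higher and 14.5% lower in control, and 35.9% and 12.6% with LPS+ATP. The interaction was positive for 14.7% and negative for 13% of them. These shares stand behind the counts of every list that follows. Of the 10 tested partner genes of the IRFs, 5 rose and 4 fell in wild-type and 5 rose and 5 fell in Nlrp3-/- BMDMs. Stat2, a partner of IRF9 in ISGF3, rose by 2.25 and 2.58 on the log2 scale, and Batf2, an AP-1 family partner, by 2.37 and 2.45. Irf2bpl, a relative of IRF2-binding proteins, fell by 1.03 on the log2 scale in wild-type cells. Between the genotypes, 2 partner genes were higher and 2 lower in Nlrp3-/- control, and 2 were higher and 3 lower with LPS+ATP. Those called in control were Irf2bp2 at 0.21, Irf2bpl at 0.19, Stat2 at -0.47 and Spi1, which encodes PU.1, at -0.18.

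Genes that IRF3 and IRF7 switch on rose in all 6 tested members of that list in both genotypes. Ccl5, a T cell chemoattractant, rose by 8.57 and 8.93 on the log2 scale and Cxcl10, a CXCR3 ligand, by 7.30 and 7.75. Isg15, a ubiquitin-like modifier, rose by 5.95 in wild-type and Ifit1, an antiviral RNA-binding protein, by 6.20 in Nlrp3-/- cells. Ifnb1, which encodes interferon-β, stayed below the level for testing: it was listed at 0 in wild-type control and averaged 0.469 FPKM after stimulation of wild-type cells and 0.702 FPKM after that of Nlrp3-/- cells. In control libraries 0 of the 6 were higher and 5 were lower in Nlrp3-/- BMDMs, among them Ifit3 at -1.11 and Ifit2 at -1.06, both DEGs. With LPS+ATP, 2 were higher and 2 lower, and the interaction was positive for 4 and negative for 0, with Ifit3 at 1.41.

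Of the 6 target genes of ISGF3, all 6 rose in both genotypes. The rises were led by Rsad2, which encodes viperin, at 6.34 and 6.19, and Mx1, a dynamin-like antiviral protein, at 4.94 and 5.46. All 6 were lower in Nlrp3-/- control, with Rsad2 at -1.08, and 4 of 6 were lower with LPS+ATP, with Rsad2 at -1.23. The interaction was positive for 5 of 6. The list's median log2 difference between genotypes was -0.86 in control and -0.17 with LPS+ATP, beside 0.09 and 0.11 over all tested genes. These lists were chosen with results of these libraries known and are described by their counts alone.

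**Figure D5:**
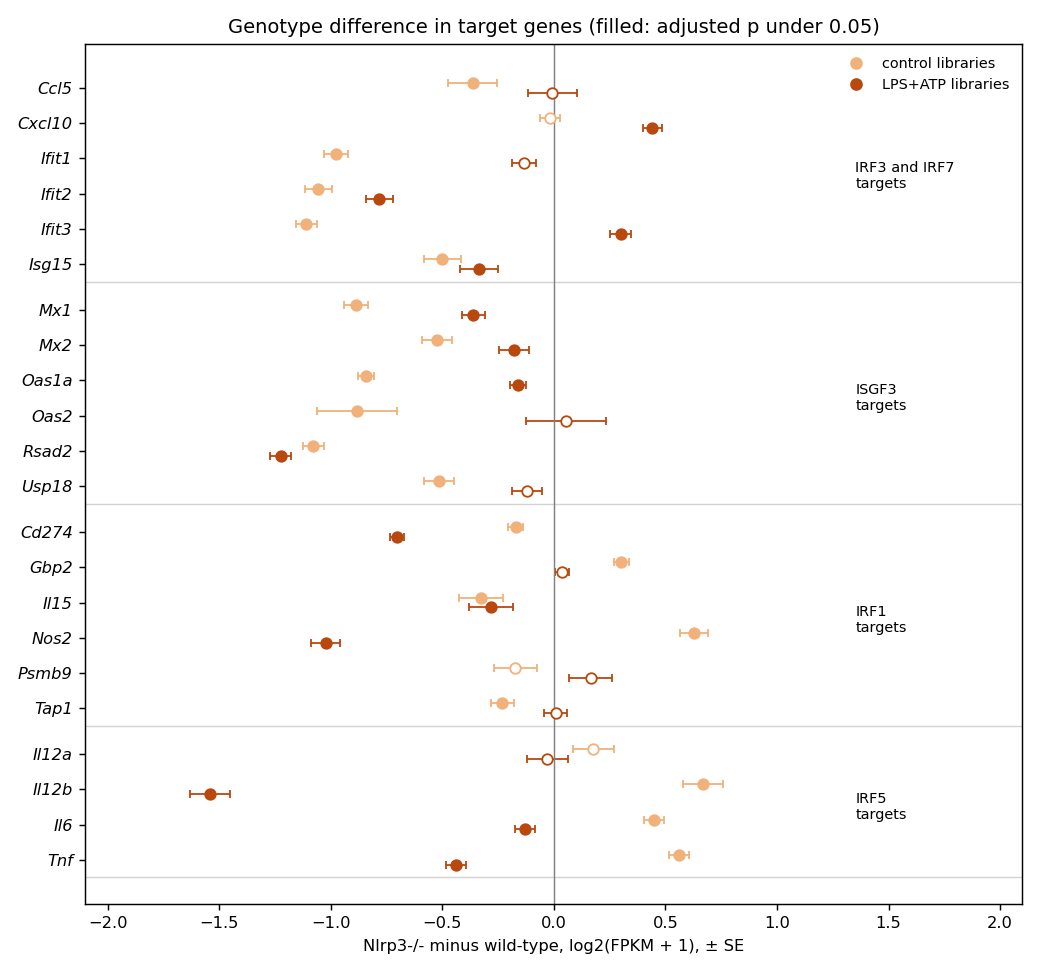
Log2 difference of FPKM + 1 between Nlrp3-/- and wild-type BMDMs (x axis, ± SE) for tested target genes of IRF3 and IRF7, ISGF3, IRF1 and IRF5 (y axis), in control and LPS+ATP libraries, with filled points for an adjusted p under 0.05. All 6 ISGF3 targets lie left of 0 in control, whereas Nos2 and Il12b lie right of 0 in control and at -1.02 and -1.54 with LPS+ATP. Nos2 and Il12b averaged below 1 FPKM in both control groups, so their control points rest on low values.

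The tested targets of IRF1 and IRF5 likewise rose in both genotypes. All 6 tested IRF1 targets rose in both genotypes, with Nos2, the inducible nitric oxide synthase, at 9.72 in wild-type and 8.07 in Nlrp3-/- BMDMs and Gbp2, an interferon-induced GTPase, at 5.33 and 5.06. Ciita, also on the IRF1 list, stayed below the level for testing. It averaged 0.359 and 0.216 FPKM in wild-type control and LPS+ATP, and 0.372 and 0.479 FPKM in the Nlrp3-/- groups. In control, 2 of the tested IRF1 targets were higher and 3 lower in Nlrp3-/- cells. Among those higher was Nos2, which averaged 0.191 and 0.843 FPKM in wild-type and Nlrp3-/- control. Its control call and its interaction therefore rest on group means below 1 FPKM. Nos2 passed the filter only through its LPS+ATP libraries, so being tested already favoured a rise. With LPS+ATP, 0 were higher and 3 were lower, with Nos2 at -1.02, and the interaction of Nos2 was -1.65. All 4 tested IRF5 targets rose as well, with Tnf at 6.08 and 5.08 and Il6 at 5.35 and 4.77. In control, 3 were higher and 0 lower in Nlrp3-/- cells, and with LPS+ATP 0 were higher and 3 were lower, among them Il12b, the p40 subunit of interleukin-12, at -1.54. Il6 averaged 0.0446 and 0.425 FPKM in wild-type and Nlrp3-/- control, and Il12b 0.113 and 0.771 FPKM. Il12a averaged 0.0993 and 0.243 FPKM in these controls. Il6, Il12a and Il12b passed the filter of 1 FPKM only through their LPS+ATP libraries, so being tested already favoured a rise. The control calls and interactions of Il6 and Il12b rest on low values. The interaction was negative for 3 of 4, with Il12b at -2.21. Irf5 itself did not pass any test, and a link between its level and these targets was not tested.

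Of 4 IRF8 targets, Cybb, a subunit of the phagocyte NADPH oxidase, rose by 1.47 and 1.42, and 2 fell in each genotype. Klf4, a monocyte transcription factor, was higher in Nlrp3-/- control by 1.11. Of 3 tested genes of alternative activation linked to IRF4, Mrc1, the mannose receptor, fell by 2.69 and 2.21 and Chil3 by 1.73 and 2.25 on the log2 scale in wild-type and Nlrp3-/- cells. Arg1, which encodes arginase, rose by 3.03 in wild-type cells, was higher in Nlrp3-/- control by 2.67 and had an interaction of -2.34.

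Replicate libraries did not bound all members equally well. The within-group SD on the log2 scale was 0.04 for Irf7, at the 6.83rd percentile of tested genes, and 0.09, 0.10 and 0.11 for Irf2, Irf3 and Irf9, near the median of 0.0882. It was 0.25 for Irf5, 0.32 for Irf1 and 0.40 for Irf8, at percentiles 92.7, 96.0 and 97.6. Fold changes of these 3 genes therefore carried the widest intervals.

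The genes whose log2 levels ran most like those of each member over the 12 libraries were found by Pearson's r, as a description that mostly follows the 4 group means. Irf7 ran with Mx1 (r = 0.9996), Znfx1 and Ccl3, and Irf9 with Asb6 (r = 0.984), Fcgr2b and Tbc1d13. Irf1 ran with Zfp407 (r = 0.985), Erich2os and Csf2, Irf3 with Trim11 (r = 0.961) and Arnt, and Irf4 with Fbxw4 (r = 0.984), Man2c1 and Zmiz1. The highest values for the remaining members were 0.821 for Irf8 with Mboat7, 0.814 for Irf2 with Tmem129 and 0.727 for Irf5 with Mob4.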

How the data were processed

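RNA sequencing of BMDMs used TruSeq libraries, 3 in each group of genotype and stimulation. The authors deposited 1 table of FPKM per gene and library. The submitters' processing notes name GRCm39 and DESeq2 1.24.0, and the aligner, the counter, the annotation and any use of strand are not given in the sources used here. Columns were assigned by genotype, stimulation and replicate number in their names, and 0 columns were left unused. Depth in reads is unknown.

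A gene was tested where 3 or more of 12 libraries reached 1 FPKM (12622 of 55335), on log2(FPKM + 1) by limma 3.58.1 (R 4.3.3), with 4 group means, a trend in the variance and two-sided Benjamini-Hochberg adjusted p. The fit was first tested on simulated data. Ratios were tested by exact permutation in scipy 1.17.1. Python 3.11.15, numpy 2.4.6, pandas 2.3.3 and matplotlib 3.10.9 were used. The members and gene lists (108 genes, all matched) were chosen with earlier results of these data known. The genes named were the members, up to 3 DEGs with the largest fold change per list and comparison, the 3 genes most like each member, and Nlrp3, sex-linked, substrain and cell type checks. Spi1, Irf2bp2, Irf2bpl, Stat2, Ifnb1 and Ciita values outside that rule, and Rnf31 and Gm17334 as overlapping genes, were named after their values were seen. Some genes that the rule names are not reported here. Gene overlaps came from GENCODE M21 and promoter windows from RefSeq, both on GRCm38.

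Alternatives were no filter, a filter at 5 FPKM, a pseudocount of 0.1, TPM, median-ratio and upper-quartile scaling, a replicate block, no variance trend, only the groups compared, and leaving out each library. Proteins were not analysed here.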

Additional observations from a re-analysis of the deposited data

Results flagged for a closer look

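The LPS+ATP effects in the 2 genotypes differed for 2 members by the interaction test in limma. For Irf7 the log2 rise was 4.30 in wild-type and 4.90 in Nlrp3-/- BMDMs, a difference of 0.60 with an adjusted p of 1.03e-05, and it was 0.53 to 0.71 over the alternatives other than leaving out a library. In FPKM the order was the opposite, with 212 in wild-type against 176 in Nlrp3-/- BMDMs. For Irf9 the log2 rise was 0.63 and 1.12, a difference of 0.49 with an adjusted p of 0.00955, and 0.44 to 0.54 over the same alternatives, and in FPKM the rise was 5.999 and 9.46. The part of the summed fibroblast and neutrophil markers, which were higher in Nlrp3-/- BMDMs, was not tested.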

How the results depend on the processing

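Of 728 combinations of a member's fold change with an alternative, 701 kept their direction or stayed uncalled, 22 lost the call, 3 gained it and 2 turned direction. Many of the 728 could not turn direction. The filters, the replicate block, the variance trend and the choice of groups leave the fold change itself unchanged, so only the call could move. The same holds for leaving out a library outside the 2 groups compared. The turned values were those of Irf2 under median-ratio scaling, 0.24 in wild-type and 0.20 in Nlrp3-/- BMDMs. With upper-quartile scaling 3 members instead of 5 were called for stimulation in Nlrp3-/- cells. Irf7 became a DEG between the control groups with a pseudocount of 0.1 (1 member instead of 0, at -1.01) and with median-ratio scaling (1 member, at -1.02). Between the LPS+ATP groups 1 member instead of 2 was called with no filter, with TPM and with only the groups compared, where Irf1 had adjusted p of 0.106, 0.0507 and 0.106. The cause of these shifts was not tested.

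Without single libraries, the members called for stimulation were 4 in wild-type and 4 to 5 in Nlrp3-/- cells, with 2 and 3 to 4 DEGs. They were 2 for genotype in control with 0 DEGs, 1 to 2 with LPS+ATP with 0 DEGs, and 2 to 3 for the interaction with 0 to 1 DEGs.

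The replicate numbers did not pair the libraries, since the correlation of same-numbered deviations ran from -0.0566 to 0.053. With the replicate block, the interaction of Irf1 was -0.85 with an adjusted p of 0.0356, so that 3 members instead of 2 were called, and the counts of members called in the other comparisons were 4, 5, 2 and 2 as without it.

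Over all genes, the filter of FPKM at least 5 left 6262 instead of 9641 genes called for stimulation in wild-type and 6062 instead of 9383 in Nlrp3-/- cells, and 515 instead of 847 DEGs between the controls. A pseudocount of 0.1 gave 3702 instead of 2452 and 2847 instead of 1874 DEGs for stimulation, 1428 and 1406 instead of 847 and 637 between genotypes, and 634 instead of 271 for the interaction. TPM gave 1285, 1175 and 501 DEGs in the last 3 comparisons. FPKM holds no read counts, so that counting error cannot be stated for the low Irf4, and sex, substrain, the marker sums and genotype cannot be told apart with these libraries.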
